A study of Bos taurus with 15 samples.

Results

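Galectins, the lectins that bind β-galactosides, were followed in caruncular endometrium, the part of the lining to which the placenta later attaches, of Japanese Black cows, on days 15 and 18 of the estrous cycle and of pregnancy. The members were the array probes, controls left out, whose gene name began with LGALS or whose annotation mentioned galectin or the older name "lectin, galactoside-binding". This search found 6 probes among 15208. They measured LGALS1, LGALS2, LGALS4 and LGALS9 (galectins 1, 2, 4 and 9), LGALS3BP (galectin 3 binding protein) and an unnamed transcript annotated as similar to galectin-5, called here the galectin-5-like transcript. Of the 10 LGALS genes other than LGALS3BP in the RefSeq annotation of the ARS-UCD2.0 assembly, 4 had a probe. LGALS3 had none, so no value is given for galectin-3 itself.

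Galectins are soluble proteins that cross-link glycans on cell surfaces and in the extracellular matrix, most strongly those carrying N-acetyllactosamine, and so affect cell adhesion, immune cell survival and signaling. In the ruminant uterus they are best known as products of the luminal and glandular epithelium around the time when the conceptus attaches. Galectin-1 has 1 carbohydrate-binding domain and is a major product of stromal cells, whereas galectin-9 is a tandem-repeat galectin with effects on T cells. LGALS3BP is not a galectin but a secreted glycoprotein that galectins bind, and its gene is known to respond to interferons.

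RNA was taken from cyclic, non-pregnant cows on day 15 (NP15, 4 arrays) and day 18 (NP18, 4 arrays) and from pregnant cows on day 15 (P15, 3 arrays) and day 18 (P18, 4 arrays), counting the day of artificial insemination as day 1. No treatment is given for any group, and pregnancy was judged by eye from trophoblast in the uterine horn on the side of the corpus luteum. Each of the 15 one-color arrays held the RNA of 1 tissue sample. The methods give 4 animals per stage, but only 3 arrays were labeled P15, and the p-values measure the spread between the arrays of a group. The samples were pieces of whole tissue, in which fewer cells of a type and less RNA per cell cannot be told apart. All 4 epithelial and all 5 stromal marker genes with a probe were well above background in every array.

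The arrays of a group correlated with each other at r = 0.945 to 0.989. The lowest signal that the scanner software accepted as well above background was 9.60 to 28.3 on the day 15 arrays and 53.5 to 75.03 on the day 18 arrays, so a dim probe was harder to measure on day 18. No scan day and no slide held arrays of more than 1 group. Scan day and group therefore cannot be told apart. One P18 array stood apart in its trophoblast genes. The summed signal of 8 such genes was 0.608 array medians in P18 replicate 1, within the range of NP18 (0.417 to 1.55), against 80.4, 136 and 591 in the other three P18 arrays.

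The first 30 of the 60 bases of 4 probes are shown because the results turn on these probes. No probe was aligned to a genome or transcript here, so the gene names are those of the array annotation and RefSeq. The bases are written in lower case throughout, as no part is set apart, and in the order in which the array files give them.
LGALS3BP: gtcccttgtctgagatcattaaaattgcac
LGALS9: tcctcggttttgaacgagggtggggtatgt
LGALS1: attcaagttccccaaccgcctcaacctgga
Galectin-5-like: tgcgtggtgtaaaatgttgctaaatgtgtt
GC content over the whole probe was 43.3% for LGALS3BP, 51.7% for LGALS9, 55.0% for LGALS1 and 36.7% for the galectin-5-like probe. None of the 6 probes shared its sequence with another probe of the array. In RefSeq, LGALS9 lies between KSR1 and NOS2, LGALS3BP between CANT1 and TIMP2, LGALS1 between PDXP and NOL12, LGALS2 between CDC42EP1 and GGA1, and LGALS4 between LGALS7B and ECH1. The galectin-5-like transcript could not be matched to a gene in that annotation.

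Levels are given in array medians, that is, the processed signal of the probe divided by the median of all probes on its array. They compare arrays for 1 probe and do not rank one probe against another. A probe was called different between groups at an adjusted p below 0.05 in limma and a fold change above 2. All 6 probes passed the filter on dim signals (well above background in at least 3 arrays), which left 13164 probes for the tests. LGALS1, LGALS3BP, LGALS4 and the galectin-5-like transcript were well above background on all 15 arrays and LGALS2 on 14, whereas LGALS9 was so on 4 arrays, 3 of P15 and 1 of P18. LGALS9 thus passed the filter only through pregnant cows, where it was brighter, so its tests and its place in the counts below are a description and no support for a difference.

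**Figure D1:**
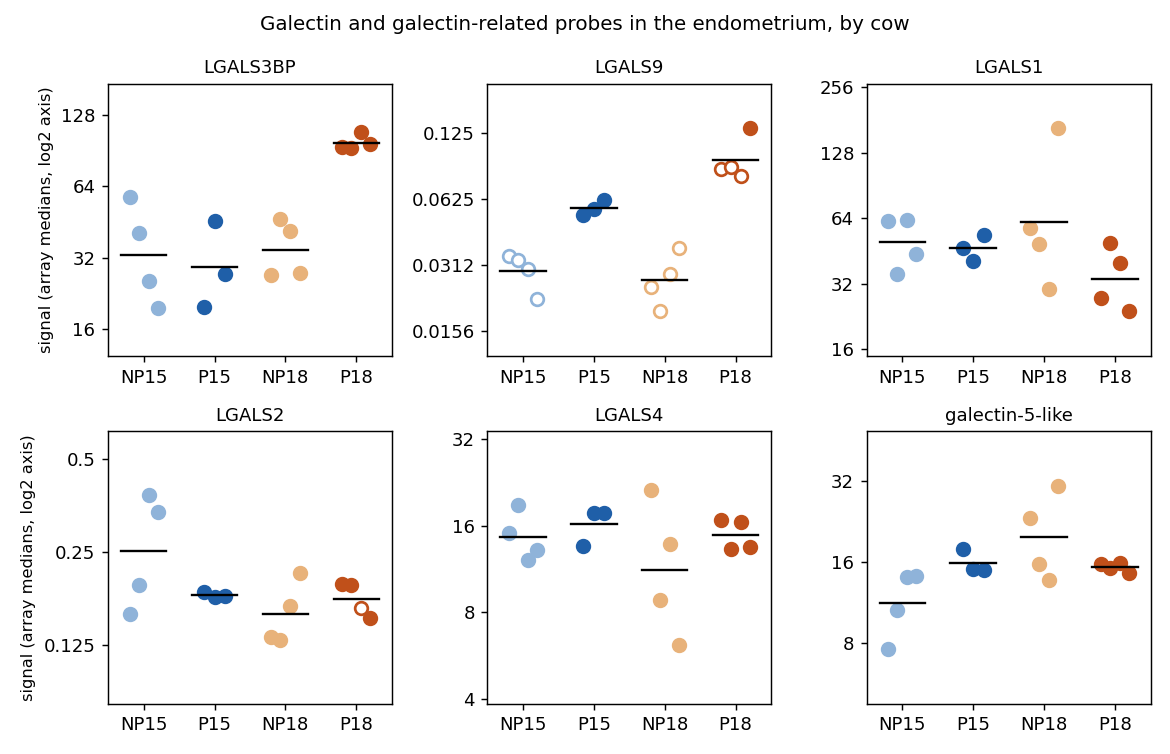
Signal of the 6 probes on each of the 15 arrays, in array medians on a log2 axis, by group (NP, non-pregnant; P, pregnant; 15 and 18, day), with each point 1 array, open where the probe was not well above background, and each line the mean of the log2 values. The 4 P18 arrays sit above all other arrays for LGALS3BP and for LGALS9, but 3 of the 4 LGALS9 points in P18 are open.

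On day 18, around the time of attachment, LGALS3BP was higher in pregnant than in cyclic cows. LGALS9 also passed the test, but on values mostly under background, and LGALS1, LGALS2, LGALS4 and the galectin-5-like transcript did not pass. With LGALS9 included, 2 of 6 probes were called, where 5.75% of all tested probes were, and in the same 2 the groups did not overlap, as in 16.3% of the probes with a value on every array. Nothing is read from these counts, since of the 2 called probes only LGALS3BP was measured in both groups.

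LGALS3BP was at 27.03, 46.4, 41.5 and 27.4 array medians in the 4 NP18 arrays. In the 4 P18 arrays it was at 94.0, 93.1, 109 and 96.9. The groups did not overlap, and P18 varied little from cow to cow. The mean was 98.1 ± 7.16 (SD, n = 4) in P18 and 35.6 ± 9.89 (SD, n = 4) in NP18. The difference on the log2 scale was 1.503 (SE 0.34, 95% CI 0.78 to 2.22), a 2.83-fold higher level, with an adjusted p of 0.0162 in limma. The exact two-sided permutation test gave p = 0.0286, the smallest that 4 against 4 arrays allow. The adjusted p was 0.516 in limma when scan day entered as a random block. As each scan day held arrays of a single group, that fit cannot separate scan day from group. It called only 49 of all tested probes in this comparison.

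LGALS3BP was as high in the P18 array with the low trophoblast signal as in the other three. In P18 replicate 1, where the summed trophoblast signal was 0.608 array medians, LGALS3BP was at 94.0, and in the other three, where that sum was at least 80.4, it lay between 93.1 and 109. With P18 replicate 1 as the one P18 array, the difference from NP18 was 1.44 on the log2 scale. A single array shows no spread within P18, so no test is read from that fit. Of the trophoblast genes, 5 of 7 tested were called higher and 1 lower in P18 than in NP18, where 5.75% of all tested probes were called. Only 1 of the 8 with a probe was well above background in each NP18 array and in P18 replicate 1, against 6 or 7 in the other three P18 arrays. The low trophoblast signal rests on 1 array, and the part of trophoblast in the LGALS3BP values was not tested.

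Signal from leukocyte genes was looked at in the same arrays. The summed signal of 8 leukocyte genes was 7.72 to 12.9 array medians in NP18 and 13.6 to 23.7 in P18, with 7 or 8 of the genes well above background in each array. Of the 8, 1 was called higher in P18 (ITGB2, the common chain of leukocyte integrins, by 1.06 on the log2 scale) and none lower, and the other 7 did not pass. Of all tested probes, 5.75% were called in this comparison. The part of leukocytes in the galectin values was not tested.

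**Figure D2:**
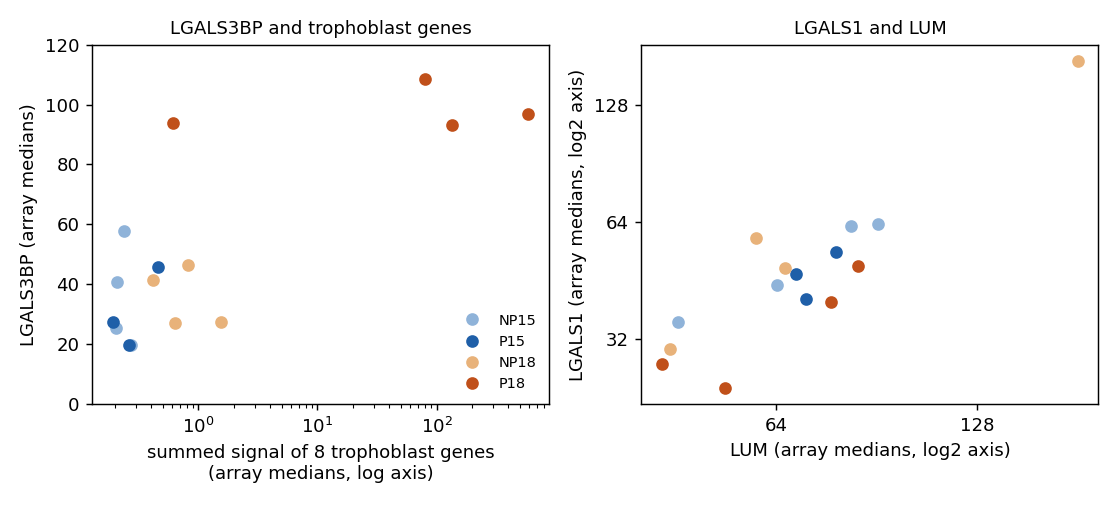
Left, LGALS3BP against the summed signal of 8 trophoblast genes (log axis), and right, LGALS1 against LUM (both log2 axes), in array medians, with each point 1 array colored by group. The 4 P18 arrays lie between 93.1 and 109 for LGALS3BP at trophoblast sums from 0.608 to 591, and NP18 replicate 4 is highest for both LGALS1 and LUM.

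LGALS9 was dim. It was at 0.025, 0.019, 0.028 and 0.037 array medians in NP18, not well above background in any of the 4 arrays. In P18 it was at 0.085, 0.088, 0.080 and 0.131, and only replicate 4 was well above background. The 4 P18 values were above the 4 NP18 values, but most were below what their own arrays could measure. The fitted difference was 1.81 on the log2 scale (SE 0.24) with an adjusted p of 0.000386 in limma, and the exact two-sided permutation test gave p = 0.0286, the smallest possible. As NP18 was not measured in any array and P18 in only 1 of 4, no fold and no bound is given. The adjusted p was 0.0701 in limma when scan day entered as a random block, a fit with the limit given above for LGALS3BP. After normexp background correction the fitted difference was 0.92, under the fold limit.

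**Figure D3:**
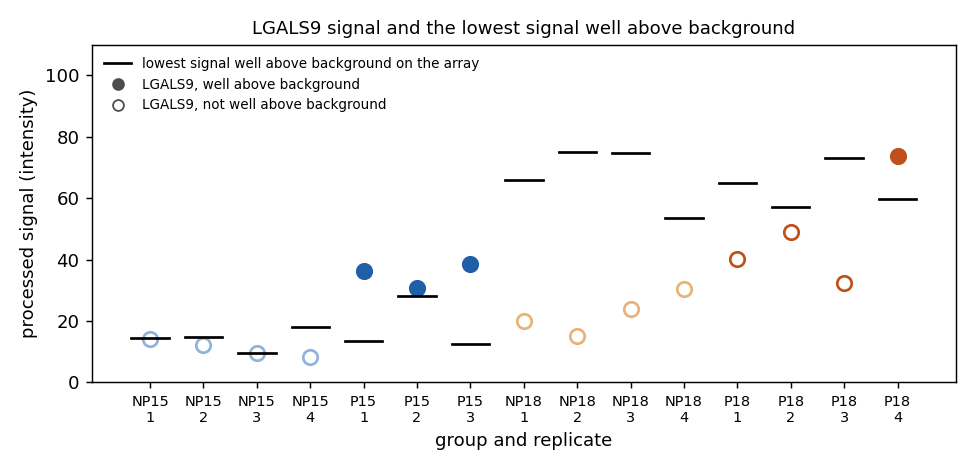
Processed signal of the LGALS9 probe (intensity, linear axis) on each of the 15 arrays, filled where well above background, with a black line at the lowest signal well above background on that array. All 3 P15 points and P18 replicate 4 are filled, and the lines lie at 9.60 to 28.3 on day 15 and at 53.5 to 75.03 on day 18.

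LGALS1, the galectin of stromal cells, was at 58.1, 48.8, 30.2 and 166 array medians in NP18. In P18 it was at 27.5, 49.1, 39.9 and 23.9. The groups overlapped, and NP18 replicate 4 was far above the other three. The difference was -0.87 on the log2 scale (SE 0.42, 95% CI -1.76 to 0.03) with an adjusted p of 0.221 in limma and an exact permutation p of 0.171. It was -0.39 without NP18 replicate 4 and -1.21 without NP18 replicate 3. That same NP18 replicate 4 also had the highest summed signal of 3 smooth muscle genes, 166 array medians against 35.4 to 103 in the other three NP18 arrays and 9.36 to 34.4 in P18. Its 5 stromal genes summed to 1079 array medians, against 635 to 794 in the other three and 597 to 758 in P18. On day 15 the stromal sum was 787 to 1560 in NP15, with LGALS1 at 35.4 to 63.2. It was 1019 to 1136 in P15, with LGALS1 at 40.6 to 53.6. The part of the tissue makeup in the LGALS1 values was not tested.

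The remaining galectins overlapped between P18 and NP18. The galectin-5-like transcript was at 23.4, 15.7, 13.8 and 30.6 array medians in NP18 and at 15.7, 15.2, 15.9 and 14.5 in P18, a difference of -0.37 (SE 0.26, adjusted p = 0.413 in limma). LGALS4, a galectin of the digestive tract epithelium, was at 21.3, 8.81, 13.8 and 6.15 in NP18 and at 16.8, 13.3, 16.5 and 13.5 in P18, a difference of 0.41 (SE 0.31, adjusted p = 0.454 in limma). LGALS2 was at 0.133, 0.130, 0.167 and 0.214 in NP18 and at 0.198, 0.195, 0.165 and 0.153 in P18, a difference of 0.16 (SE 0.27, adjusted p = 0.759 in limma). The 95% intervals of these differences were -0.93 to 0.19, -0.26 to 1.08 and -0.42 to 0.75 on the log2 scale.

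The comparison of pregnant with cyclic cows on day 15, before attachment, called none of the 6 galectin probes, where 0.798% of all tested probes were called. At an unadjusted p below 0.05, LGALS9 alone passed in limma, where 1956 of the 13164 tested probes did. The methods' t-test, adjusted in the same way, called 0 of all tested probes, so its 0 of the 6 tells nothing particular to the galectins. The groups did not overlap for 2 of the 6, LGALS9 and the galectin-5-like transcript, against 15.6% of the probes with a value on every array, and nothing is read from this count.

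LGALS9 was at 0.034, 0.033, 0.030 and 0.022 array medians in NP15, not well above background in any array. In P15 it was at 0.053, 0.056 and 0.062, well above background in all 3. The P15 values lay above those of NP15. With array median scaling the lower bound on the fold was 1.504 (1.40 to 1.62 when single arrays were left out), and with quantile normalization 1.37. The bound describes a probe that passed the filter only through pregnant cows and is no support for a difference. This bound sets the P15 mean against the lowest signal well above background on each NP15 array, or the probe's own signal where that was higher. The fitted difference of 0.95 on the log2 scale (SE 0.26) did not pass (adjusted p = 0.104 in limma), and the exact two-sided permutation test gave p = 0.0286, the smallest that 3 against 4 arrays allow, under the limit that the filter sets for this probe. After normexp background correction the fitted difference was -0.22, in the other direction, and the bound was not computed with that correction.

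The galectin-5-like transcript was at 7.63, 10.6, 14.1 and 14.1 array medians in NP15 and at 17.9, 15.1 and 15.0 in P15. The lowest P15 value was close to the highest of NP15. The difference was 0.50 (SE 0.28, 95% CI -0.11 to 1.11, adjusted p = 0.431 in limma), and the exact permutation p was 0.143.

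LGALS3BP, which stood out on day 18, overlapped fully on day 15. It was at 57.8, 40.7, 25.5 and 19.7 array medians in NP15 and at 19.8, 45.8 and 27.4 in P15. The difference was -0.18 (SE 0.36, 95% CI -0.95 to 0.60, adjusted p = 0.868 in limma). The summed trophoblast signal was low in both groups, 0.203 to 0.274 array medians in NP15 and 0.192 to 0.457 in P15.

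LGALS1 was at 62.4, 35.4, 63.2 and 44.0 array medians in NP15 and at 46.9, 40.6 and 53.6 in P15, a difference of -0.09 whose sign changed with the scaling of the arrays (adjusted p = 0.949 in limma). LGALS4 was at 15.1, 18.9, 12.1 and 13.1 in NP15 and at 13.6, 17.7 and 17.6 in P15 (adjusted p = 0.884 in limma). LGALS2 was at 0.158, 0.196, 0.383 and 0.337 in NP15 and at 0.186, 0.179 and 0.180 in P15 (adjusted p = 0.479 in limma). For these 3 genes the groups overlapped.

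Whether pregnancy changed the galectins differently on the 2 days was tested as an interaction, the difference on day 18 minus that on day 15. None of the 6 probes passed, where 2.72% of all tested probes did. At an unadjusted p below 0.05, 3 of the 6 passed in limma: LGALS3BP (1.68 on the log2 scale, SE 0.50, 95% CI 0.62 to 2.74, adjusted p = 0.0793), the galectin-5-like transcript (-0.87, SE 0.39, adjusted p = 0.235) and LGALS9 (0.86, SE 0.35, adjusted p = 0.196). At that threshold 2535 of the 13164 tested probes passed, and LGALS9 has the limit that the filter sets for it. Nothing is read from this count. With array weights, as with normexp background correction, 2 of the 6 were called. In those fits 1332 and 1331 of all tested probes were called, against 358 without them. A larger effect on LGALS3BP on day 18 than on day 15 was thus not past the threshold, although its effect was called on day 18 and not on day 15.

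**Figure D4:**
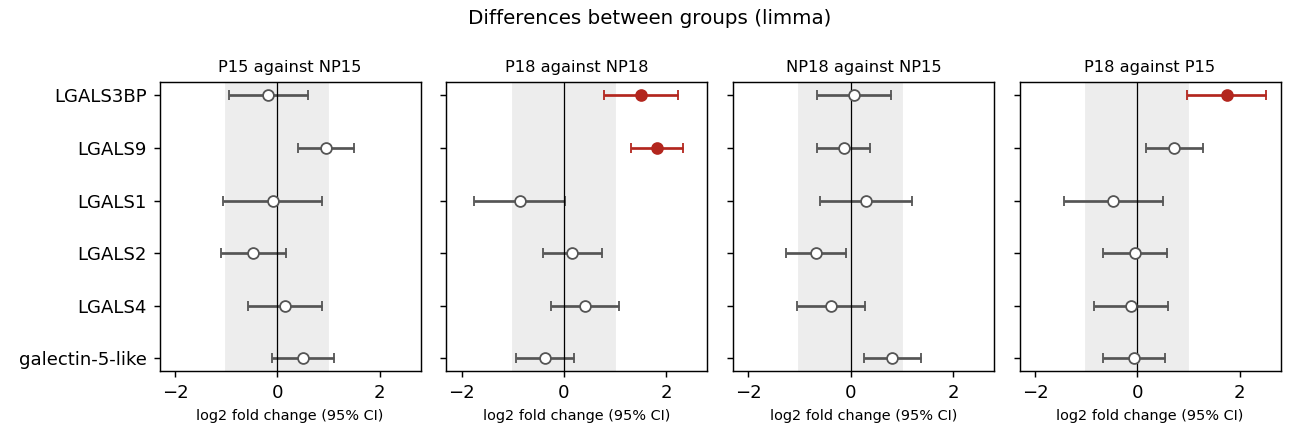
Difference between groups in log2 fold change, with 95% confidence intervals from limma, for the 6 probes (rows) in 4 comparisons (panels), filled red where called and with changes under 2-fold shaded. LGALS3BP is called in P18 against NP18 and against P15, and LGALS9 in P18 against NP18, where its fitted value (1.81) rests on 7 of 8 arrays not well above background.

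Between the days, LGALS3BP was the one galectin probe called, in pregnant cows. The difference of this day effect from that in cyclic cows equals the interaction given above (adjusted p = 0.0793 in limma). LGALS3BP was higher in P18 than in P15 by 1.75 on the log2 scale (SE 0.36, 95% CI 0.97 to 2.53), a 3.36-fold higher level, with an adjusted p of 0.00780 in limma and an exact permutation p of 0.0286. The P15 mean was 31.0 ± 13.4 array medians (SD, n = 3). This made 1 of 6 probes called in P18 against P15, where 11.9% of all tested probes were, and 2 of 6 without overlap, LGALS3BP and LGALS9, where 42.8% were. The adjusted p of LGALS3BP was 0.228 in limma when scan day entered as a random block. That fit called 0 of all tested probes in this comparison, so the lost call tells nothing particular to LGALS3BP. Scaling to the 75th percentile moved the median difference of all probes from 0.12 to -0.18, and LGALS3BP was then at 1.45.

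LGALS9 did not pass in P18 against P15 (adjusted p = 0.0672 in limma), and no size is given, as it was well above background in 1 of 4 P18 and all 3 P15 arrays. The other four probes differed between P18 and P15 by -0.47 (LGALS1), -0.12 (LGALS4), -0.06 (galectin-5-like) and -0.04 (LGALS2), with adjusted p from 0.497 to 0.935 in limma, and of these only LGALS1 kept its sign in all settings.

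In cyclic cows, NP18 against NP15, none of the 6 was called, where 7.16% of all tested probes were. At an unadjusted p below 0.05 in limma 2 of the 6 passed, where 3851 of the 13164 tested probes did. Nothing is read from this count. The galectin-5-like transcript was higher in NP18 by 0.82 (SE 0.26, 95% CI 0.25 to 1.38, adjusted p = 0.0605), and LGALS2 lower, at -0.68 (SE 0.27, adjusted p = 0.115). LGALS3BP stayed close, 35.9 ± 17.1 array medians in NP15 (SD, n = 4) against 35.6 ± 9.89 in NP18 (SD, n = 4), with a difference of 0.07 (95% CI -0.65 to 0.79) whose sign changed with the scaling. For LGALS9 no fold is given, as it was not well above background in any array of either group.

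Ordered by its group means, LGALS3BP ran from P15 (31.0) through NP18 (35.6) and NP15 (35.9) to P18 (98.1), and apart from P18 these groups did not differ beyond their spread. LGALS1 ran from P18 (35.1 ± 11.6, n = 4) through P15 (47.0 ± 6.50, n = 3) and NP15 (51.2 ± 13.8, n = 4) to NP18 (75.9 ± 61.5, n = 4), each with SD and with no neighbors apart beyond their spread. The galectin-5-like transcript varied most in NP18, with a coefficient of variation of 36.8%, and least in P18, with 3.92%. LGALS2 had its widest range in NP15, 0.158 to 0.383 array medians.

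The genes most like each galectin over the 15 arrays were found by Pearson's r of log2 levels among 5278 named genes. These values describe arrays that share their groups and their scaling, and carry no test. LGALS9 was most like IFITM1 (r = 0.90), OAS1X (0.86), FBXO21 (0.85), ISG15 (0.85) and BOLA-DOB (0.84), of which IFITM1, OAS1X and ISG15 are known interferon-stimulated genes. Once the group means were taken off, r with IFITM1 was 0.18 and with ISG15 -0.13. LGALS9 was well above background on 4 of 15 arrays, all of pregnant cows. Its r values over all arrays thus rest mostly on values not well above background, and they place it in no group of genes. The within-group values say nothing of whether its variation from cow to cow was shared.

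LGALS3BP was most like PLSCR2 (r = 0.94), GOLT1A (0.93), VPS33B (0.92), LONP2 (0.91) and GDPGP1 (0.91), and within groups r with GOLT1A, a protein of Golgi transport, was 0.97. LGALS1 was most like LUM (0.90), HAUS1 (0.89), SVBP (0.88), GLIPR2 (0.87) and ILK (0.86). LUM encodes lumican, a proteoglycan of the collagen matrix. The LGALS1 and LUM correlation was 0.78 without NP18 replicate 4, in which LUM was at 181 array medians against 43.2 to 90.9 in the other arrays.

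The galectin-5-like transcript was most like SDC2 (r = 0.93), which encodes the cell surface proteoglycan syndecan-2, followed by KHDRBS1 (0.90), NEDD1 (0.90), ARMC1 (0.89) and DDB1 (0.88). LGALS4 was most like COL11A2 (0.86), ZBTB16 (0.83), SCD5 (0.82), TMEM86A (0.82) and MTUS1 (0.81). LGALS2 was most like TCEA1 (0.88), RXRA (0.88), HPCA (0.87), NPFF (0.87) and GRK2 (0.86). Among the galectin probes themselves, r was 0.66 for LGALS9 with LGALS3BP and -0.59 for LGALS1 with LGALS4, and the other 13 pairs lay between -0.48 and 0.46. The pairs with LGALS9 have the limit of its dim signal given above.

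Galectins act through glycoproteins on the cell surface and in the matrix, so 40 known binding partners were looked at beside them, 26 of which had a probe and were tested. In P18 against NP18, 1 of the 26 was called higher and none lower, where 5.75% of all tested probes were called. Their median difference was 0.08 against 0.07 over all probes. The one called was MERTK, a receptor of macrophages that mediates the uptake of dying cells, at 22.8 ± 3.38 array medians in P18 (SD, n = 4) against 8.31 ± 1.57 in NP18 (SD, n = 4), a difference of 1.46 (SE 0.25, adjusted p = 0.00332 in limma). In P15 against NP15, where 0.798% of all tested probes were called, none was called higher and 1 lower. The median was 0.12 against -0.06 over all probes. The lower one was ITGA5, the α5 chain of the fibronectin receptor, at 0.639 ± 0.139 in P15 (SD, n = 3) against 1.502 ± 0.454 in NP15 (SD, n = 4), a difference of -1.20 (SE 0.26, adjusted p = 0.0431 in limma). It was no longer called under 9 of 17 other settings, nor without NP15 replicate 1 or 2, any P15 or P18 array, or NP18 replicate 2 or 3 (adjusted p from 0.0506 to 0.249 in limma).

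In P18 against P15, 3 of the 26 binding partners were called higher and 1 lower, with a median of 0.18 against 0.12 over all probes. As 11.9% of all tested probes were called in this comparison, nothing is read from this count. The higher ones were TNFRSF9 (4-1BB, a costimulatory receptor of T cells, 2.79 on the log2 scale), CD47 (a surface signal against phagocytosis, 1.42) and MERTK (1.27), and the lower one was VTN (vitronectin, an adhesive matrix protein, -1.35). TNFRSF9 was well above background in 3 of 4 P18 and 1 of 3 P15 arrays, so its fitted value is no measured size, and it was 1.22 with normexp background correction. In NP18 against NP15, ALCAM (an adhesion molecule of leukocytes and epithelia, 1.88) and CD47 (1.14) were higher, and VTN (-1.76) and ITGA5 (-1.42) lower, with a median of 0.29 against 0.02 over all probes. In that comparison 7.16% of all tested probes were called. With array weights ALCAM was at 2.66. The NP18 against NP15 call of CD47 was lost without NP15 replicate 2, 3 or 4, any P15 array, or NP18 replicate 2 or 4 (adjusted p from 0.0524 to 0.109 in limma), and its P18 against P15 call without any P15 array or P18 replicate 3 (0.0502 to 0.0644). The P18 against P15 call of MERTK was lost with 75th percentile scaling (0.97, just under the fold limit), with quantile normalization and in the authors' table.

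The glycans that galectins bind are built by branching, galactosyl- and sialyltransferases, and 17 of the 38 listed enzymes were tested. In P18 against NP18, 1 of the 17 was called higher and none lower, where 5.75% of all tested probes were called. Their median was -0.13 against 0.07 over all probes. MGAT4A, which adds a branch to N-glycans, was at 1.498 ± 0.564 array medians in P18 (SD, n = 4) and 0.155 ± 0.0444 in NP18 (SD, n = 4), a difference of 3.23 on the log2 scale (SE 0.45, adjusted p = 0.000633 in limma). In P18 replicate 1 alone, the array low in trophoblast genes, it was 2.39 above NP18. The part of trophoblast in the MGAT4A values was not tested. In P18 against P15, MGAT4A (2.74) and GCNT3 (2.48), a branching enzyme of mucin-type glycans, were higher. ST3GAL3, a sialyltransferase that caps galactose, was lower at -1.17, and 11.9% of all tested probes were called in this comparison. The call of GCNT3 was lost without P15 replicate 2 (adjusted p = 0.0637 in limma). None of the 17 was called in P15 against NP15 or in NP18 against NP15, where 0.798% and 7.16% of all tested probes were.

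Of 19 other lectins, 8 were tested. KLRB1, the C-type lectin receptor CD161 of natural killer and T cells, was higher in P18 than in NP18 by 2.54 (SE 0.42, adjusted p = 0.00231 in limma) and than in P15 by 2.81, and no other was called in P18 against NP18. ASGR1, a chain of the asialoglycoprotein receptor, was higher in P18 than in P15 by 1.78, a call lost with 75th percentile scaling and without P15 replicate 1 or 3 or any P18 array (adjusted p from 0.0538 to 0.171 in limma). CANX, the endoplasmic reticulum lectin calnexin, was higher in NP18 than in NP15 by 1.31. None was called in P15 against NP15. Of all tested probes, 5.75% were called in P18 against NP18 and 11.9% in P18 against P15. In NP18 against NP15 the share was 7.16%, and in P15 against NP15 it was 0.798%. The KLRB1 values stood beside the leukocyte sums of P18 given above, whose part in them was not tested. Normexp background correction gave smaller differences for MGAT4A (2.496) and KLRB1 (1.88) in P18 against NP18, and for GCNT3 (1.86) and KLRB1 (2.05) in P18 against P15. None of the calls among binding partners, enzymes and lectins held when scan day entered as a random block, with adjusted p from 0.0585 to 0.548 in limma. Over all tested probes that fit called 0 in P15 against NP15 and 0 in P18 against P15. It called 49 in P18 against NP18 and 54 in NP18 against NP15. As it cannot separate scan day from group, nothing is read from the lost calls.

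Some other tissue markers also differed between P18 and NP18, where 5.75% of all tested probes were called. Of 3 smooth muscle genes 2 were called lower, of 5 stromal genes 1 lower, of 5 endothelial genes 1 lower, of 2 steroid receptor genes 1 lower, and of 4 epithelial genes none was called. The other genes of these lists did not pass. The epithelial sum was 198 to 296 array medians in P18 and 102 to 289 in NP18, and in P15 (92.6 to 112) it lay below NP15 (152 to 264). The part of tissue makeup in the galectin differences was not tested.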

How the data were processed

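RNA of 15 endometrial samples was hybridized to one-color (Cy3) custom bovine arrays of 15744 spots. The authors scanned the arrays and deposited spot intensities from Agilent Feature Extraction 9.5, on a linear scale, corrected for background and not scaled between arrays. A second table deposited by the authors holds log2 values, which followed the same intensities scaled close to the 75th percentile of each array, with column medians of -3.19 to -2.72. Its direction and centering were read from this match. It was an alternative here.

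Each intensity was divided by the array median over 15208 non-control probes, following the methods, and put on the log2 scale. Control spots and outlier flags were left out and saturated spots kept. Probes well above background in at least 3 arrays (13164) were fitted with limma 3.58.1 in R 4.3.3, with 1 mean per group over all arrays. Adjusted p-values are Benjamini-Hochberg values over all tested probes. Shares of groups without overlap used the 13130 probes with a value on every array. Exact permutation tests enumerated every regrouping of the arrays compared. Scripts were tested on simulated data. Figures and tables were made in Python 3.11.15 with pandas 2.3.3, numpy 2.4.6 and matplotlib 3.10.9.

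The members and gene lists (binding partners, enzymes, other lectins, and markers of epithelium, stroma, steroid receptors, leukocytes, trophoblast, smooth muscle and endothelium) were chosen with earlier results of these data known. Named genes were every galectin probe, up to 5 called genes per direction of each pathway list and comparison, and the 5 genes most like each galectin, with the brightest probe for genes other than galectins. ITGB2, a marker gene, was named after its value was seen. Of all probes, 6154 had a symbol, through names in the files or RefSeq's table of ARS-UCD2.0. The start positions of protein-coding genes in RefSeq gave the neighboring genes named above, and no probe was placed by them. No genome was used here, so it was not determined whether a probe lies in coding or untranslated sequence. Alternatives were 75th percentile and quantile scaling, normexp (offset 50), the authors' table, other filters, array weights, trend and robust variances, groups fitted alone, slide, scan day or replicate number as block, no fold limit, the methods' t-test, and each array left out.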

Additional observations from a re-analysis of the deposited data

How the results depend on the processing

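Of the galectin probes, 2 were called in P18 against NP18. This count was 1 with normexp background correction, where LGALS9 fell under the fold limit, and 1 with the filter at all 15 arrays, under which LGALS9 was not tested. It was 0 with scan day as a random block. In P18 against P15 the count of 1 was 0 with scan day as a random block. P18 replicate 1 as the one P18 array was an alternative chosen after seeing the data. That fit assumes that the lone array varies like the others, so only its effect sizes are given and no count. The interaction count of 0 was 2 with normexp, 2 with array weights, and from 0 to 1 when single arrays were left out (1 without NP15 replicate 4). Over all tested probes the interaction called 1331 with normexp and 1332 with array weights, against 358 without them. With the replicate block the counts of called galectin probes were 0, 2, 0, 0 and 1 for P15 against NP15, P18 against NP18, the interaction, NP18 against NP15 and P18 against P15, as without it. Over all probes it left 8, 614, 192, 828 and 1145 calls, where there had been 105, 757, 358, 942 and 1566. Scan day as a random block left 0, 49, 0, 54 and 0, in a fit that cannot separate scan day from group. Over all settings the calls among all probes ranged from 0 to 853, 49 to 1344, 0 to 1332, 54 to 1744 and 0 to 3080 in the same order. Arrays with the same number did not deviate together (r from -0.26 to 0.30), so the numbers were not taken to pair cows.

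No galectin call changed its direction. Differences that were not called did so as follows. In P15 against NP15, LGALS1 was 0.0075 with the 75th percentile and 0.0053 in the authors' table, 0.10 with quantile normalization and 0.16 with array weights (-0.25 to 0.024 when single arrays were left out). LGALS4 was -0.10 with array weights, LGALS9 -0.22 with normexp, and LGALS3BP ranged from -0.50 to 0.10 when single arrays were left out. In NP18 against NP15, LGALS3BP was -0.051 with the 75th percentile, -0.032 with quantile normalization and -0.050 in the authors' table, and when single arrays were left out it ranged from -0.18 to 0.34, LGALS1 from -0.18 to 0.64 and LGALS9 from -0.30 to 0.018. In P18 against P15, LGALS2 was 0.048 with quantile normalization, 0.20 with normexp and 0.12 with P18 replicate 1 as the one P18 array (-0.098 to 0.026 when single arrays were left out). LGALS4 was 0.011 with the replicate block and 0.050 with P18 replicate 1 as the one P18 array, and the galectin-5-like transcript ranged from -0.10 to 0.028 when single arrays were left out. The cause of these changes was not tested. LGALS3BP stayed called without any 1 array, with adjusted p in limma up to 0.0499 for P18 against NP18 and up to 0.0471 for P18 against P15. The number of arrays limits the precision, and for LGALS9 the signal over background does.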
